A study of Mus musculus with 2 samples.

Results

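Activated regulatory T cells carried transcripts of 10 lipid-sensing and orphan G protein-coupled receptors: S1pr1, S1pr4, Gpr183, P2ry10, Gpr174, Gpr18, Gpr65, Gpr132, Gpr171 and Gpr83. These genes were taken by symbol from the 55536 genes of the deposited quantification, and all 10 were found. RNA with poly(A) tails came from primary cells that the labels call activated regulatory T cells. The donor was a male mouse aged 4 months of the strain written Foxp3CreERT2 x Rosa26YFP. In such animals a tamoxifen-inducible Cre is driven by the Foxp3 locus and a yellow fluorescent protein sits at Rosa26. Both libraries were technical replicates, 1 and 2, of biological replicate 1, so there was 1 group and no untreated or resting sample to set it against. The tissue, the sort and the way of activation were not given in the sources used here. Each mean ± SD below is over the 2 libraries and covers technical spread, not the spread between animals. Levels are in TPM, which divides reads by transcript length, scales each library to 1 fixed sum and can be compared between genes.

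G protein-coupled receptors cross the membrane several times and pass a signal from an extracellular ligand to a G protein inside the cell. In lymphocytes many of them read lipids. S1pr1 senses sphingosine 1-phosphate, which is abundant in blood and lymph, and is required for T cells to leave lymphoid organs. Gpr183, also called EBI2, follows gradients of hydroxylated cholesterols and positions cells within lymphoid tissue. P2ry10 and Gpr174 are activated by lysophosphatidylserine, and Gpr174 is known in mice to restrain regulatory T cells. Gpr65 and Gpr132 are grouped with the receptors that sense extracellular acid. Gpr18, Gpr171 and Gpr83 are receptors whose proposed ligands are still debated, and Gpr83 is a long-known marker gene of mouse regulatory T cells.

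The coding sequences of the members, read from GENCODE M21 transcripts on GRCm38 (mm10), encode between 319 and 423 residues, and 8 of 10 lie in 1 coding exon. To show how the family members resemble each other, 51 coding bases of each are given in the coding direction around the place of the DRY motif, an acidic residue, an arginine and usually a tyrosine at the inner end of the third membrane helix that help to hold the receptor inactive. Capitals mark these 3 codons.
S1pr1: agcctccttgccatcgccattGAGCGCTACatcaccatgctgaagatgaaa
S1pr4: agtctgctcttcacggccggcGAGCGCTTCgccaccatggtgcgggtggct
Gpr183: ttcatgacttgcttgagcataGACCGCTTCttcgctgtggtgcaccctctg
P2ry10: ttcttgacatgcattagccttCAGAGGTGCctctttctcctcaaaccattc
Gpr174: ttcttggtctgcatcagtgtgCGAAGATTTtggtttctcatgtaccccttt
Gpr18: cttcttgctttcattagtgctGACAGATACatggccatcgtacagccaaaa
Gpr65: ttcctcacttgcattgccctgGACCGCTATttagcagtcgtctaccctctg
Gpr132: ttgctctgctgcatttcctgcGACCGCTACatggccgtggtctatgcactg
Gpr171: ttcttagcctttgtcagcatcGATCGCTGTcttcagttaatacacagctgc
Gpr83: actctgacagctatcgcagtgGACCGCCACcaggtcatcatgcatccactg
In 8 members the place was found by searching near the third helix for an acidic residue, an arginine and an F, Y, C or H residue. The acidic first codon and the arginine second codon of these 8 were thus fixed by the search. The other 2, the lysophosphatidylserine receptors P2ry10 and Gpr174, had no such match, and their place was found by alignment with Gpr183. There the first capital codon encodes no acidic residue and the second encodes arginine. Over whole translated coding sequences the 45 pairs of members had a median identity of 26.1%, from 21.1% for S1pr4 with Gpr174 to 45.2% for P2ry10 with Gpr174. The pair S1pr1 and S1pr4 shared 39.6% of aligned residues, and Gpr65 and Gpr132 shared 31.0%. The Gpr83 stretch is from transcript Gpr83-201 and crosses a splice junction, which matters for the transcript results further on. The identities instead used each gene's complete coding transcript with the most reads, which for Gpr83 was Gpr83-202 with 381 residues.

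The label of the cells was checked against marker genes. All 6 regulatory T cell markers were above 10 TPM in both libraries, from Foxp3 at 22.4 ± 2.06 TPM to Izumo1r at 797 ± 88.2 TPM, and all 5 T cell markers were above 100 TPM. The others of the regulatory list, Il2ra, Ctla4, Ikzf2 and Tnfrsf18, were each above 100 TPM. Summed TPM of 5 B cell markers, 6 myeloid markers and 4 natural killer cell markers came to at most 0.120%, 0.0660% and 0.0443% of that of the T cell markers in either library. Cd14, Itgax and Ncr1 had 0 reads in both libraries. Of the 2 markers of CD8 T cells, Cd8a had 1.43 TPM in library 1 and 0.79 TPM in library 2, and Cd8b1 had 9.94 TPM in library 1 and 14.8 TPM in library 2. Together they came to 0.210% of the T cell marker sum in library 1 and 0.280% in library 2, above the B cell, myeloid and natural killer cell sums. Several receptors described here are also known from B cells and myeloid cells, and the part of other cells in their levels was not tested beyond these sums. In bulk RNA, fewer cells that carry a transcript and less of it per cell cannot be told apart. The libraries held 15076048 and 14635787 estimated gene reads.

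All 10 members reached 10 TPM in both libraries, and S1pr1 alone reached 100 TPM. Their median was 61.8 TPM, with 58.9 TPM in library 1 and 64.7 TPM in library 2, beside 0.593 TPM over 22028 protein-coding genes. Of those genes, 29.5% reached 10 TPM in both libraries. S1pr1 led at 160.0 ± 21.1 TPM and exceeded 96.6% of protein-coding genes. Gpr183 followed at 88.9 ± 0.354 TPM, Gpr83 at 75.7 ± 5.63 TPM and P2ry10 at 72.4 ± 2.00 TPM. Gpr18 had 62.2 ± 3.97 TPM, S1pr4 had 61.5 ± 12.1 TPM, Gpr132 had 52.3 ± 3.55 TPM and Gpr174 had 50.7 ± 1.5 TPM. Gpr171 had 44.0 ± 0.276 TPM and Gpr65 was lowest at 35.3 ± 0.170 TPM, still above 85.3% of protein-coding genes. S1pr1 was 4.53 ± 0.576 times as abundant as Gpr65. An SD from 2 values can fall below the counting error, so the small ones do not bound it.

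**Figure D1:**
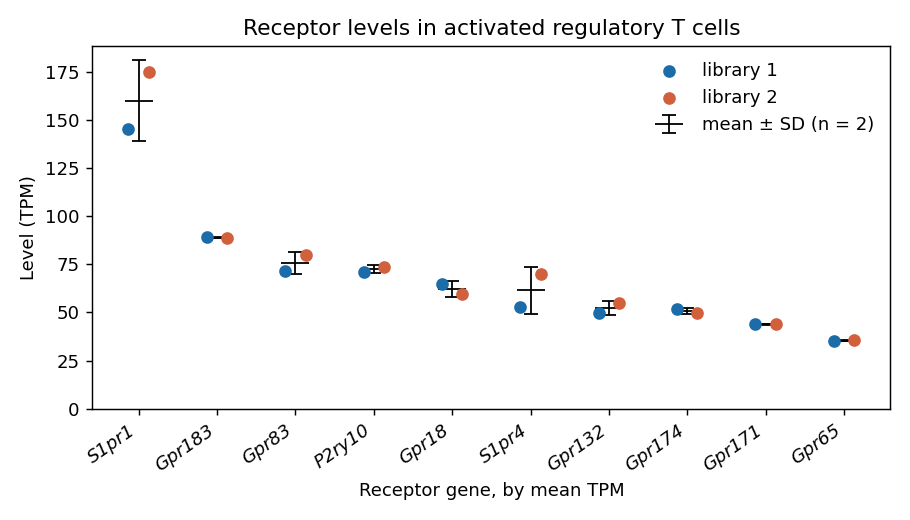
TPM of each receptor gene (vertical axis, linear) in library 1 (blue) and library 2 (orange), ordered by mean, with the mean and SD of the 2 libraries in black. S1pr1 stands above the others at 145.0 and 174.9 TPM, the other 9 lie between 35.2 and 89.1 TPM, and S1pr4 and S1pr1 show the widest gaps between libraries.

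Not every step of this order was larger than the spread. Of the 9 neighbouring pairs, 5 had library values that did not overlap: S1pr1 over Gpr183, Gpr183 over Gpr83, P2ry10 over Gpr18, Gpr174 over Gpr171 and Gpr171 over Gpr65. By the deposited bounds around the posterior mean TPM, only 3 pairs were apart in both libraries. The bounds of P2ry10 and Gpr18 overlapped in library 1, and those of Gpr174 and Gpr171 in library 2. The library values of the other 4 pairs overlapped, namely Gpr83 with P2ry10, Gpr18 with S1pr4, S1pr4 with Gpr132, and Gpr132 with Gpr174. Gpr18 stood above S1pr4 in library 1 and below it in library 2, and Gpr174 likewise stood above Gpr132 in library 1 only. The order also depends on the length used. When estimated reads were divided by the length of all annotated exons, Gpr83 moved to rank 6 and Gpr174 to rank 10, while S1pr1 and Gpr183 remained at ranks 1 and 2. Gpr83 and Gpr174 have 5095 and 5402 annotated exon bases in all. The effective lengths by which their deposited TPM was scaled were shorter. In libraries 1 and 2 they were 3179 and 3142 bases for Gpr83, and 3026 and 2997 bases for Gpr174. The level of Gpr174 also includes a short noncoding transcript, Gpr174-205. It had 18.9 TPM from 95.2 estimated reads in library 1 and 18.8 TPM from 89.4 in library 2. The rank of Gpr174 is thus that of the whole gene, and without this transcript Gpr174 would stand below Gpr65 in both libraries.

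S1pr1 (ENSMUSG00000045092.8, chr3:115710433-115715072, minus strand) had 145.0 TPM from 5391 estimated reads in library 1 and 174.9 TPM from 6135 reads in library 2. S1pr4 (ENSMUSG00000044199.6, chr10:81497747-81500132, minus strand), a lymphoid receptor for the same lipid, had 52.9 TPM from 1533 reads in library 1 and 70.1 TPM from 1916 reads in library 2. Both were higher in library 2, and S1pr1 was 2.62 ± 0.174 times as abundant as S1pr4. The other receptors of the family were low. S1pr2, which inhibits migration, had 2.43 and 3.59 TPM in libraries 1 and 2, so that S1pr1 was 54.2 ± 7.76 times as abundant. S1pr5, known for the egress of natural killer cells, had 0.26 TPM in library 1 and 0 reads in library 2. S1pr3 had 0 reads in both, which allows up to 0.0581 TPM if 3 reads are taken as the limit of a count of 0, a limit that covers counting error only.

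All 6 genes listed as regulators or partners of S1pr1 reached 10 TPM in both libraries. Cd69, an early activation protein that binds S1pr1 and removes it from the surface, had 187 ± 2.67 TPM, or 1.18 ± 0.139 times the level of S1pr1. Klf2, a transcription factor that induces S1pr1, had 30.2 ± 1.05 TPM, and S1pr1 was 5.29 ± 0.516 times as abundant. Il7r and Ccr7, genes of recirculating T cells, had 241 ± 2.66 and 191 ± 10.5 TPM. Foxo1, which acts upstream of Klf2, was the lowest of this list at 22.4 ± 0.707 TPM. Of 14 genes that make, break or move sphingosine 1-phosphate, 7 reached 1 TPM in both libraries. The highest was the acid ceramidase gene Asah1 at 53.2 ± 7.35 TPM. Sgpl1, the lyase that destroys the lipid, had 17.0 ± 1.97 TPM, and the phosphatase gene Sgpp1 had 13.1 ± 2.74 TPM. Of the kinases that make it, Sphk2 had 9.55 ± 2.55 TPM and Sphk1 had 0 and 0.04 TPM in libraries 1 and 2. The exporter gene Spns2 and the phosphatase gene Plpp3 had 0 reads, and Acer1 was the lowest with reads at 0.015 ± 0.0212 TPM.

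Gpr183 (ENSMUSG00000051212.8, chr14:121952551-121965195, minus strand) had 89.1 TPM from 2689 reads in library 1 and 88.6 TPM from 2579 reads in library 2. The libraries thus gave nearly the same level. The enzymes that form its ligand were not seen in the same RNA. Ch25h and Cyp7b1, which add hydroxyl groups to cholesterol, and Cyp27a1 had 0 reads in both libraries, which allows up to 0.192, 0.121 and 0.242 TPM. Hsd3b7, which degrades the ligand, had 4.33 TPM in library 1 and 3.49 TPM in library 2.

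P2ry10 (ENSMUSG00000050921.12, chrX:107088492-107104974, plus strand) had 71.0 TPM from 2498 estimated reads in library 1 and 73.9 TPM from 2447 in library 2. Gpr174 (ENSMUSG00000073008.11, chrX:107255878-107296769, plus strand) had 51.8 TPM from 1943 reads in library 1 and 49.7 TPM from 1742 in library 2. In TPM of the whole gene, noncoding transcripts included, P2ry10 was above Gpr174 in both libraries, by 1.43 ± 0.0817 times. Both lie in 1 gene cluster on the X chromosome with P2ry10b, which starts 44.0 kb beyond P2ry10 and ends 82.2 kb before Gpr174. P2ry10b, whose coding sequence is 75.1% identical to that of P2ry10 in translation, had 2.56 TPM in library 1 and 3.53 TPM in library 2. P2ry10 was 24.3 ± 4.82 times as abundant as this copy. Of the distinct 50-base stretches of P2ry10 transcripts, 3.79% also occur in P2ry10b, so the split between them is uncertain. P2ry10b had only 94.8 estimated reads in library 1 and 100.5 in library 2. A small share of P2ry10 reads can therefore weigh heavily on the level of P2ry10b and on the ratio, though little on P2ry10. The libraries also placed P2ry10b reads on different transcripts, P2ry10b-205 in library 1 and P2ry10b-201 in library 2. Gpr34, the other lysophosphatidylserine receptor, had 17.2 and 13.4 TPM in libraries 1 and 2. Of 3 genes of lysophosphatidylserine metabolism, the enzyme genes Abhd16a and Abhd12 had 17.1 ± 2.15 and 12.8 ± 1.10 TPM, and Pla1a, a secreted phospholipase, had 0 and 0.09 TPM in libraries 1 and 2.

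Gpr132 (ENSMUSG00000021298.8, chr12:112850873-112868228, minus strand) had 49.8 TPM from 1501 reads in library 1 and 54.9 TPM from 1539 in library 2. Gpr65 (ENSMUSG00000021886.7, chr12:98268635-98276644, plus strand) had 35.2 TPM from 882 reads in library 1 and 35.5 TPM from 838 in library 2. Gpr132 was 1.48 ± 0.0934 times as abundant as Gpr65. Gpr4, an acid-sensing receptor known from endothelial cells, had 0.23 and 0.06 TPM in libraries 1 and 2. An antisense gene, Gm47566, covers 24.7% of the exon bases of Gpr65 and was listed at 0 in both libraries. No source used here says whether counting used strand, so reads of this stretch cannot be told apart.

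**Figure D2:**
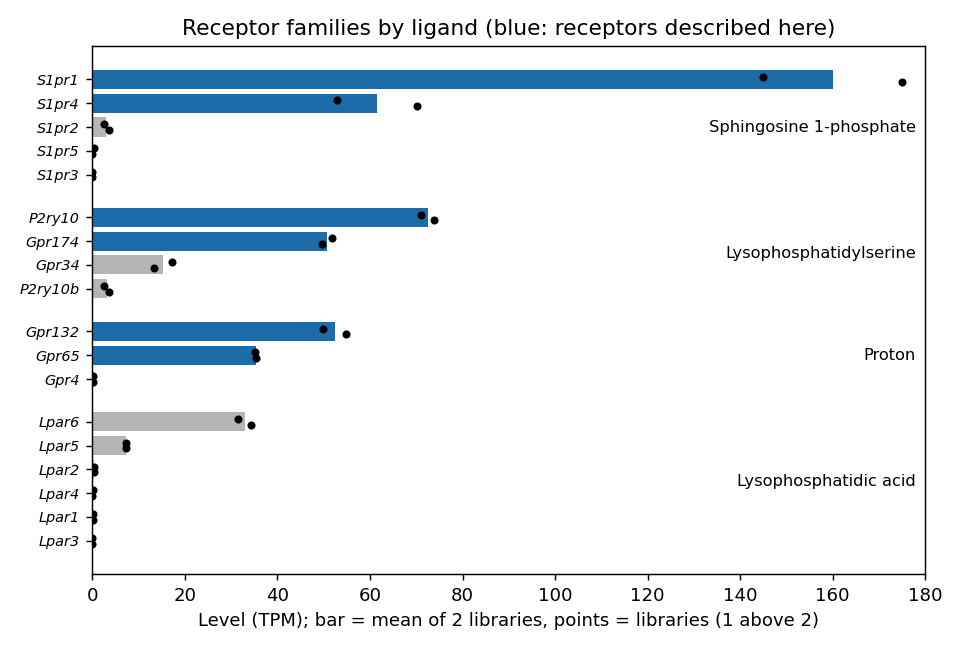
Mean TPM (bars) and TPM of each library (points, library 1 above library 2) of receptor genes grouped by ligand, with the receptors described here in blue. S1pr1 and S1pr4 lead the sphingosine 1-phosphate receptors, P2ry10 and Gpr174 the lysophosphatidylserine receptors, and Gpr132 and Gpr65 stand above Gpr4 among the acid-sensing receptors shown, while Lpar6 leads the lysophosphatidic acid receptors at 32.9 TPM.

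Gpr18 (ENSMUSG00000050350.8, chr14:121911253-121915781, minus strand), for which N-arachidonyl glycine and a resolvin have been proposed as ligands, had 65.0 TPM from 1168 reads in library 1 and 59.4 TPM from 1007 in library 2. It lies 36.8 kb from Gpr183 with no protein-coding gene between them in the annotation, and Gpr183 was 1.43 ± 0.0858 times as abundant. Both genes lie inside Ubac2, a gene of the opposite strand at 58.5 ± 2.44 TPM, but share no exon bases with it. Gpr183 was 1.52 ± 0.0694 times and Gpr18 1.06 ± 0.112 times as abundant as this host gene.

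Gpr171 (ENSMUSG00000050075.8, chr3:59096448-59101821, minus strand) had 44.2 TPM from 1192 reads in library 1 and 43.8 TPM from 1115 in library 2. It lies inside Med12l, a gene of the opposite strand with 0.40 and 0.27 TPM in libraries 1 and 2, and shares no exon bases with it. Its next neighbour P2ry14, a receptor for nucleotide sugars 12033 bases away, had 3.88 and 2.29 TPM in libraries 1 and 2. Gpr83 (ENSMUSG00000031932.14, chr9:14860210-14870789, plus strand) had 71.7 TPM from 2828 reads in library 1 and 79.7 TPM from 2930 in library 2. Gpr83 lies 15024 bases from Izumo1r, the folate receptor gene used above as a regulatory T cell marker, and had 0.0952 ± 0.00347 times its TPM. Relative to Foxp3 it was 3.41 ± 0.565 times as abundant. Pcsk1n, whose protein is cut into the peptides proposed as ligands of Gpr83 and Gpr171, had 0 reads in both libraries, which allows up to 0.120 TPM.

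The transcripts of Gpr83 differ at the motif shown above. The leading transcript was Gpr83-202 with 61.2% of the gene's TPM in library 1 and 64.3% in library 2, followed by Gpr83-201 with 32.95% and 32.4%. In libraries 1 and 2, Gpr83-202 had 43.9 and 51.3 TPM, and Gpr83-201 had 23.6 and 25.8 TPM. By estimated reads the shares in libraries 1 and 2 were 55.6% and 59.1% for Gpr83-202, and 36.7% and 36.4% for Gpr83-201. Gpr83-202 thus led in both libraries on both scales. In its annotation, Gpr83-202 lacks exon 2 of Gpr83-201 (chr9:14864772-14864897, plus strand), which is coding throughout, has 126 bases and so keeps the reading frame. This exon is shown because the DRY-motif codons, in capitals, lie in it.
Gpr83 exon 2: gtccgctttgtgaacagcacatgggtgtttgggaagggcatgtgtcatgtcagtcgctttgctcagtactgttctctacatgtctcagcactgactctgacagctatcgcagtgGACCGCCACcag
Gpr83-201 encodes 423 residues and Gpr83-202 encodes 381, with the same 130 residues at the start and the same 251 at the end. The annotated ends of the transcripts differ too, with 1514 bases after the coding part in Gpr83-202 and 1993 in Gpr83-201, so the estimated shares rest on those ends as well as on exon 2. Gpr83-203, a transcript with a retained intron, took 5.87% and 3.31% of the gene's TPM in libraries 1 and 2.

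The other members gave simpler or less certain pictures. S1pr1, S1pr4, Gpr18, Gpr65 and Gpr171 have 1 annotated transcript each. For 9 of 10 members the transcript with the most TPM was the same in both libraries, which is fixed for those 5. In libraries 1 and 2, P2ry10-201 took 97.9% and 93.4% of the gene's TPM, and Gpr132-201 took 100% and 98.5%. Gpr183-201 took 89.8% and 92.1% of the gene's TPM but 98.7% and 99.0% of its reads. The other transcript, Gpr183-202, is 361 bases long. Gpr174 was the exception. Gpr174-203 led in library 1 with 42.2% of TPM, against 31.8% in library 2, whereas Gpr174-205, a noncoding transcript of 455 bases, took 36.5% in library 1 and 37.9% in library 2, where it led. By reads Gpr174-203 led in both, with 70.7% and 53.7% in libraries 1 and 2, and Gpr174-205 had 4.90% and 5.13%. The 5 coding transcripts of Gpr174 all encode 335 residues in 1 coding exon. Gpr174 also had wide deposited bounds around its posterior mean TPM, from 41.7 to 50.4 around 46.1 in library 1 and from 40.2 to 49.2 around 44.7 in library 2, bounds whose coverage was not given in the sources used here.

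**Figure D3:**
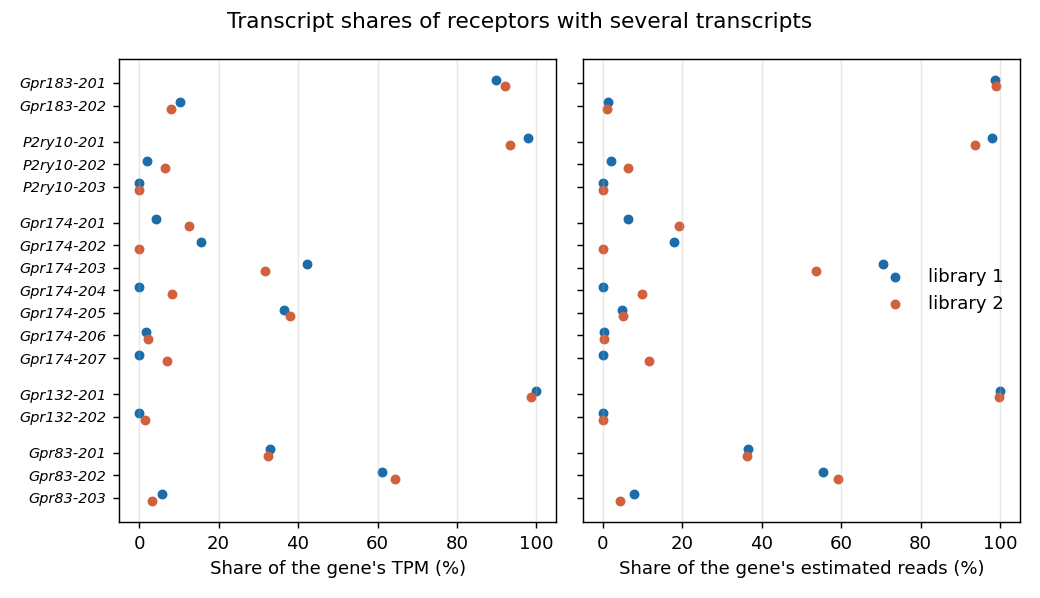
Share of each annotated transcript in its gene's TPM (left, percent) and in its gene's estimated reads (right, percent) for the 5 receptor genes with several transcripts, library 1 in blue and library 2 in orange. Gpr83 divides between Gpr83-202 and Gpr83-201 in both libraries and on both scales, whereas Gpr174-205 took over 36% of TPM but about 5% of reads.

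Among all 69 protein-coding genes named Gpr and a number, 21 reached 1 TPM in both libraries, or 30.4%, and 14 reached 10 TPM. The 7 members with such names were all among these 14. They took 65.3% of the summed TPM of the 69 genes in library 1 and 63.2% in library 2. Gpr183, Gpr83, Gpr18, Gpr132 and Gpr174 held ranks 1 to 5, Gpr171 rank 7 and Gpr65 rank 10. High genes of this kind outside the members were Gpr108 at 41.2 ± 8.68 TPM, Gpr107 at 36.9 ± 4.38 TPM, Gpr89 at 20.4 ± 0.127 TPM and Gpr15 at 18.01 ± 1.33 TPM. Of these, Gpr107, Gpr108 and Gpr89 are known from internal membranes and not as surface receptors of lipids, and Gpr15 guides T cells to the colon. The other 62 genes had a median of 0.04 TPM, and 19 of them had 0 reads in both libraries.

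**Figure D4:**
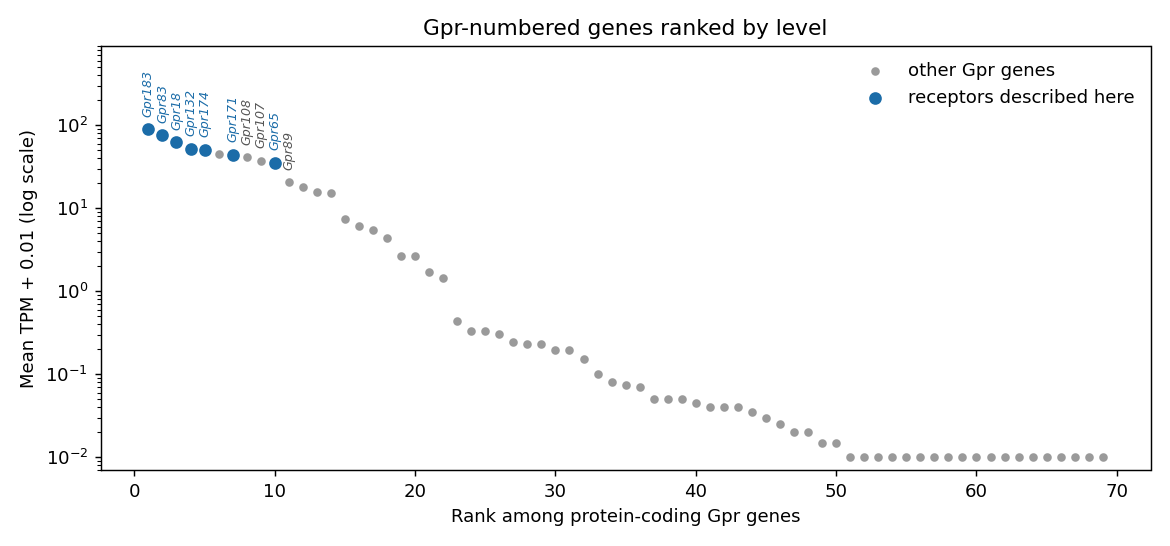
Mean TPM plus 0.01 on a log axis against rank for the 69 protein-coding genes named Gpr and a number, with the receptors described here in blue and the others in grey. The 7 blue points lie within the first 10 ranks, and the flat end on the right holds the 19 genes with 0 reads.

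Other receptors of lipids were mostly lower than the members. Of 23 prostanoid, leukotriene, cannabinoid and fatty acid receptor genes, 9 reached 1 TPM and 4 reached 10 TPM in both libraries. The prostaglandin receptor gene Ptger2 was highest at 27.9 ± 0.856 TPM, under every member. Ptgdr, Ptgfr, Cnr1, Ffar3, Gpr84 and Gpr119 had 0 reads, and Ptgdr2 was the lowest with reads at 0.015 ± 0.0212 TPM. Of 6 lysophosphatidic acid receptor genes, Lpar6 was highest at 32.9 ± 1.99 TPM, Lpar1 had 0.025 ± 0.00707 TPM and Lpar3 had 0 reads.

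The proteins that carry the members' signals were also transcribed. Of 13 G protein alpha subunit genes, 10 reached 1 TPM in both libraries. Gnai2, an inhibitory subunit through which S1pr1 and Gpr183 act, was highest at 136 ± 4.38 TPM, and Gna13, used by S1pr2 and P2ry10, had 49.7 ± 1.39 TPM. Gnas, which raises cyclic AMP downstream of Gpr65, had 90.2 ± 7.56 TPM. Gna15 lies 2173 bases from S1pr4 and had 40.5 ± 1.75 TPM. Gnaz was the lowest with reads at 0.01 ± 0.0141 TPM, and Gnai1 had 0 reads. Arhgef1, a nucleotide exchange factor driven by Gna13, had 126 ± 7.57 TPM, and Arhgef11, the lowest of the 3 such factors listed, had 2.99 ± 0.0495 TPM. Of 15 RGS genes, which shorten G protein signals, 10 reached 1 TPM and 3 exceeded 100 TPM. Rgs1 had 480.0 ± 33.1 TPM, Rgs10 had 227 ± 6.29 TPM and Rgs19 had 153 ± 2.56 TPM, whereas Rgs18 had 0 and 0.04 TPM in libraries 1 and 2 and Rgs17 had 0 reads. Grk2, a kinase that turns off S1pr1, had 70.9 ± 7.43 TPM, Grk3 had 0 and 0.04 TPM in libraries 1 and 2, and Grk1 had 0 reads. The arrestin gene Arrb2 had 75.1 TPM in library 1 and 48.7 TPM in library 2.

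With 1 sample, the only test the design allows compares the libraries with each other. An exact two-sided binomial test set the count of library 1 against its share of all gene reads, for genes whose 2 counts added up to at least 10, and p-values were adjusted by Benjamini-Hochberg over 17271 genes. Of all genes tested, 24.3% were called at 0.05, with 11.6% higher in library 1 and 12.7% higher in library 2. Among 5224 genes with a summed count of 1000 or more, a depth that every member reached, 39.5% were called. Of the members 3 of 10 were called, between these shares. S1pr4 had a log2 ratio of library 1 over library 2 of -0.36 ± 0.0494 (counting SE, exact test, adjusted p = 9.6e-12). S1pr1 had a log2 ratio of -0.23 ± 0.0269 (exact test, adjusted p = 1.5e-15). Gpr18 had a log2 ratio of 0.17 ± 0.0620 (exact test, adjusted p = 0.029) and was the only member called higher in library 1. Gpr83, at -0.09, and Gpr174, at 0.11, missed the threshold with adjusted p = 0.056 and 0.063 in the same exact test. The ratios of Gpr132, P2ry10, Gpr183, Gpr65 and Gpr171 lay between -0.08 and 0.05. The members' median absolute log2 ratio was 0.09, against 0.15 for 10925 genes with a summed count of 100 or more. That set reaches down to fewer counts than any member had, where counting error widens ratios. The 2 medians are thus not matched for depth. When a dispersion of 0.01 was allowed in edgeR's exact test, 0 members were called, 0 had an unadjusted p under 0.05, and 492 genes were called in all.

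The difference between the libraries moved with base composition. Over genes with a summed count of 100 or more, the median log2 ratio was 0.07 in the fifth of genes with the lowest GC content of the longest transcript and -0.07 in the fifth with the highest. Across these 10919 genes the Spearman correlation of ratio and GC content was -0.23, as a description of genes that share the same 2 libraries. Over the 10 members alone it was -0.62, likewise only a description. Among the members, S1pr4 had the highest GC content, 59.3%, and the most negative ratio, and Gpr174 had the lowest, 35.5%, and a positive ratio. S1pr1 and Gpr18, at 48.8% and 48.6% GC, had ratios of opposite sign. When the expected share was taken within bins of GC content, an alternative chosen after seeing the data, S1pr4, S1pr1 and Gpr18 were called again, with log2 ratios of -0.32, -0.21 and 0.19. P2ry10 was then called as well, with a log2 ratio of -0.12 (exact test, adjusted p = 0.024). The log2 ratio of Gpr174 was 0.010 with these shares, against 0.11 without them.

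**Figure D5:**
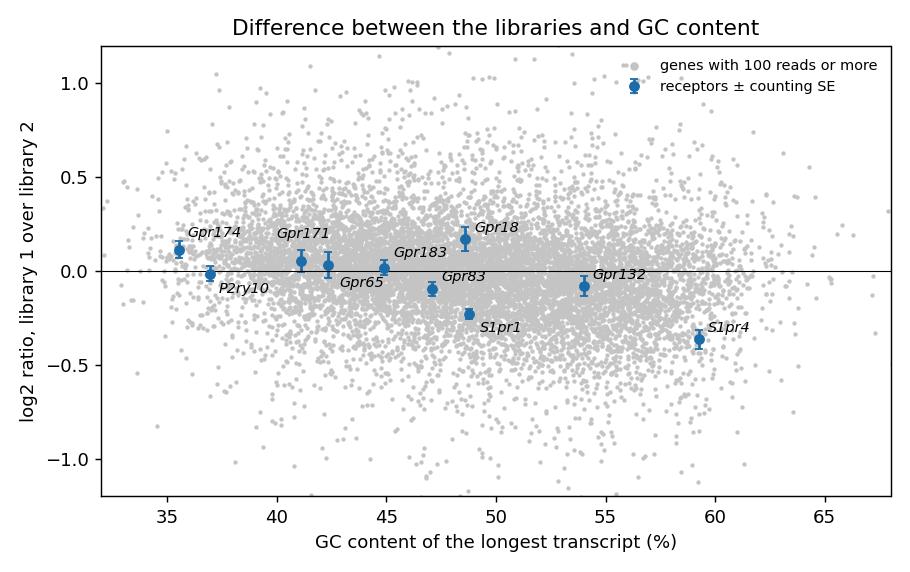
Log2 ratio of library 1 over library 2 against GC content (percent) of the longest transcript, with receptors in blue with their counting SE and genes with 100 reads or more in grey; a few grey points lie outside the axes. S1pr4 lies lowest at 59.3% GC, S1pr1 and Gpr18 lie on opposite sides of 0 at nearly the same GC content, and Gpr174 lies above 0 at 35.5% GC.

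A second deposited table, of whole-number counts on an older annotation, listed all 10 members with fewer counts. S1pr1 had 1322 counts in library 1 and 1475 in library 2, or 24.5% and 24.0% of its estimated reads. In libraries 1 and 2 the share was highest for Gpr18, with 59.8% and 64.5%, and lowest for Gpr174, with 15.9% and 15.8%. Since the share differed this much between members, the order by whole-number counts differed from that by estimated reads. S1pr1 was first in both, Gpr18 held rank 9 by estimated reads and rank 5 by whole-number counts, and Gpr174 held rank 5 by estimated reads and rank 10 by whole-number counts. How these counts were made was not given in the sources used here. Its highest count for any gene was 7120 in library 1 and 7078 in library 2, whereas Ikzf2 alone had 23837 and 22281 estimated reads. By the members' shares given above, counts in it were not in proportion to estimated reads. S1pr1 and S1pr4 were higher in library 2 in this table too, and they were the 2 members called by the same exact test on it. Both tables come from the same 2 libraries, so this is no independent evidence.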

How the data were processed

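Polyadenylated RNA of 1 biological sample was sequenced in 2 technical libraries, sheared to fragments of 100 to 300 bases, per the labels. The authors deposited gene and transcript tables on mm10 with GENCODE M21, per the listings deposited with the samples. No source used here names the tool. Expected counts (estimated reads that need not be whole), TPM (scaled by effective length), its posterior mean and bounds, and each transcript's percent of its gene's TPM were deposited, per the file headers. Whole-number counts on GENCODE M4 were also deposited, and 22195 of 22457 identifiers matched. Length minus effective length corresponds to reads of 50 bases. Rows that name no gene held 0.142% of reads in library 1 and 0.186% in library 2 and entered neither library sizes nor tests; the deposited TPM includes them.

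The 10 members and all lists were chosen with earlier results of these data known. Named genes were every member, the highest and lowest of each list with reads, those at 100 TPM or more or at 0 reads, family and pathway relatives, overlapping and neighbouring genes, and the 5 highest other Gpr genes, except a few that are not reported here. Symbols, coordinates (1-based) and sequences came from GENCODE M21, which is the build of the files. GC content was known for 17258 of 17271 genes tested. Identity came from global alignment (BLOSUM62, gap opening 11, extension 1) with Biopython 1.88. Expected counts were rounded, tested by the exact binomial test (2 times the smaller tail), and log2 ratios add 0.5 to each count. The test was tried on simulated counts with counting error only, which does not show how its p-values hold under wider spread. Alternatives used edgeR 4.0.16 (TMM, exact test), DESeq2 1.42.0 (size factors), other filters, lengths, thresholds and scalings. Python 3.11.15, scipy 1.17.1 and R 4.3.3 were used. P-values measure the difference between 2 libraries only. No molecular identifiers are mentioned in the sources used here, so SEs and limits cover counting error only.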

Additional observations from a re-analysis of the deposited data

How the results depend on the processing

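The 10 members reached 10 TPM whether the threshold was put on both libraries, their mean, either library alone or reads per union exon length. The count of members that differed between libraries was 3, and 2 to 4 under TMM, DESeq2 size factors, other filters, the whole-number table and shares by GC content; it was 0 with edgeR's exact test at a dispersion of 0.01. Over all genes the calls were 4198, against 492 in that exact test and 1092 in the whole-number table, which holds fewer genes and counts. Gpr83 was called with TMM (adjusted p = 0.026) and with a summed count of 50 or more (adjusted p = 0.047), and Gpr174 with DESeq2 size factors (adjusted p = 0.035); Gpr18 was not called in the whole-number table (log2 ratio 0.10, adjusted p = 0.49).

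The median member level of 61.8 TPM was 58.9 and 64.7 with 1 library left out, 66.4 when TPM was rescaled without mitochondrial, rRNA and non-gene rows, and 104.3 per union exon length, where all 10 members' levels moved by more than their SD; the cause was not tested. The count of numbered Gpr genes was 21 and ranged from 14 at 10 TPM to 30 at 0.1 TPM, and the most abundant transcript was the same for 10 members by reads. Log2 ratios that were near 0 and not called changed sign: with shares by GC content, Gpr132 to 0.0054, Gpr171 to -0.0014, Gpr183 to -0.013 and Gpr65 to -0.018, and in the whole-number table Gpr132 to 0.075 and Gpr183 to -0.0074; the cause was not tested. No paired analysis was possible because there is 1 group of technical libraries.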
